A study of Rattus norvegicus with 24 samples.

Results

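The genes described here encode the mitochondrial respiratory chain and the ATP synthase from the nucleus, measured by RNA sequencing in a culture model of the neonatal rat testis. They were chosen by symbol, as rows beginning with Nduf followed by a, b, c, s or v, the Sdha to Sdhd rows, and rows beginning with Uqcr, Cox4 to Cox8 or Atp5. A row also needed a level of at least 1 CPM (counts adjusted for the size of the library) in at least 3 libraries of each of 2 experiments. Of 21425 listed genes 94 matched the symbols and 73 met the limit. These were 30 genes of complex I, 7 complex I assembly factors (Ndufaf1 to Ndufaf7), 4 genes of complex II, 6 of complex III, 11 of complex IV and 15 of complex V. The rule used names and a low limit, not differences between groups, but it was set with earlier results of these data known. Ndufa4 was counted with complex IV, of which its protein is now known to be a part, and Ndufs5-ps2 carries a pseudogene symbol.

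Complex I takes electrons from NADH and complex II takes them from succinate, both pass them through ubiquinone to complex III, and cytochrome c carries them on to complex IV, which reduces oxygen. Protons pumped on the way drive the ATP synthase, complex V. The core of every complex but complex II also holds subunits encoded by mitochondrial DNA, so 2 genomes have to supply matching parts. Many of the nuclear genes are known targets of the transcription factors NRF-1, NRF-2 (GABP) and YY1 and of PGC-1 coactivators. In the testis, Sertoli cells, the somatic cells that enclose germ cells, are known for strong glycolysis and for passing lactate to germ cells, and some subunits of complex IV and cytochrome c have forms particular to male germ cells.

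All cells came from testes of Sprague Dawley rats (labelled WT) on postnatal day 5, used whole, with no cell type enriched or removed, and grown in a matrix gel without serum. The baseline experiment used a single litter, with 3 technical replicates of the fresh isolate (labelled tissue) and of cultures at day 3, 5 and 7, so its p-values measure technical spread and not the spread between animals. The induction experiment used 3 litters, sequenced at culture day 10 before hormone (0 h) and 2, 12 and 48 h after LH (50 mIU/mL) with FSH (20 mIU/mL) in fresh medium, with 1 library per litter and time that combined 3 cultures. No later library without hormone was among these samples, so hormone, fresh medium and time cannot be told apart.

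The 12 baseline libraries held 17.3 M to 30.4 M reads and the 12 induction libraries 15.8 M to 28.3 M reads, so that 1 read was worth 0.0329 to 0.0633 CPM. The summed level of 10 germ cell markers was 497 to 529 CPM in tissue and 59.9 to 105 CPM in the culture libraries of the baseline. That of 8 Sertoli markers was 2502 to 2581 CPM in tissue and 2387 to 3968 CPM in culture, and that of 7 peritubular myoid markers 1414 to 1579.8 CPM in tissue and 3035 to 4841 CPM in culture. Against tissue at day 7, 9 of 9 germ cell markers tested fell, 4 of 8 Sertoli, 6 of 7 myoid and 2 of 2 tested mesothelial markers rose, and 1 Sertoli marker fell. The mesothelial markers Upk3b and Msln were under the limit for testing, with means of 0.0674 and 0.0338 CPM at day 7. Of 7 Leydig markers 2 rose and 3 fell, and of 5 macrophage markers 3 fell. Of 3 endothelial and 2 red blood cell markers 1 rose and 1 fell in each list. Beside these counts, 31.4% of all genes tested fell and 28.5% rose at day 7. The red blood cell genes Hba-a1 and Hbb and the endothelial gene Emcn were listed at 0 in all day 7 libraries. So were the macrophage gene Cd163 and the germ cell gene Stra8. Their tissue means were 21.8, 0.413, 1.00, 0.0731 and 1.75 CPM. In the same lists the mean went up from tissue to day 7 for Alas2 (5.97 to 15.8 CPM), Kdr (8.95 to 50.7 CPM) and Cd68 (0.775 to 1.51 CPM). Nanos2, Tek and Hba-a1 met the limit for testing only with tissue libraries, and Lrrn4 and Upk1b only with culture libraries. The part of these shifts in the results that follow was not tested. In such bulk samples fewer cells of a type and less RNA per cell cannot be told apart. Among the members, the third replicate of day 5 stood apart, with 3 genes more than 1.5-fold above and 7 genes more than 1.5-fold below both other replicates, and the third replicate of day 3 had 6 genes above. Counts by complex are given with and without these 2 libraries where they differ, as are several named genes.

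Promoter windows of 65 of the 73 members were found by symbol in RefSeq (build GRCr8), each 250 bases before to 50 bases after the start of the gene. Motifs were searched on both strands, and a match describes letters and not a binding site. In no member's window did matches of different motifs overlap. The NRF-1 core GCGCATGCG was in 8 of the 65 windows (12.3%) and in 1.66% of all 27457 windows. The core AAGATGGC of YY1 was in 13 windows (20.0%) and in 3.44% of all. The ETS core CCGGAAGT, as bound by NRF-2, was in 6 windows (9.23%) and in 4.01% of all. At least 1 of the 3 was in 24 windows (36.9%) and in 8.49% of all windows. The 27457 windows were not limited to genes tested here or matched for base content, and the differences in share were not tested. Of the NRF-1 matches 4 were in complex V genes, 2 in assembly factors, 1 in complex I and 1 in complex III, and none in the 9 complex IV windows. The 5 windows that follow were chosen after the matches were seen, to show 1 gene with each kind of match and 2 with none, among genes whose levels are described with the results. They run 5′ to 3′ on the strand of the gene, in lower case, with the matched letters in capitals. In Atp5mc2 the NRF-1 core lies on both strands as an overlapping palindrome starting at base 195 of the window. In Uqcrc1 the NRF-1 core starts at base 212 and a YY1 core follows. In Ndufs1 the ETS core lies on the opposite strand from base 51. Atp5f1b and Ndufv3 held none of the 3.
Atp5mc2, chr7:135678169-135678468 (minus strand): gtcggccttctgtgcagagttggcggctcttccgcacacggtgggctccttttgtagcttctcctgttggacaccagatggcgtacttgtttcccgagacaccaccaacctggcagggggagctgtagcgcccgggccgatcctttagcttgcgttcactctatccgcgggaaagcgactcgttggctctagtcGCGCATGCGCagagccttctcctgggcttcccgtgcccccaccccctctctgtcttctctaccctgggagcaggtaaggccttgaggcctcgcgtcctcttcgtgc
Uqcrc1, chr8:118467973-118468272 (plus strand): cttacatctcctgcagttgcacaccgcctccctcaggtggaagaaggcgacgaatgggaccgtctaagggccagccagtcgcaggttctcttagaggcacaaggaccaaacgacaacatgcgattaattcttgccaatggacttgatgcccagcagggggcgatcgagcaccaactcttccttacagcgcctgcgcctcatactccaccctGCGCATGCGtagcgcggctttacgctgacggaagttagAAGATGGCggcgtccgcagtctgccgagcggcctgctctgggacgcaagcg
Ndufs1, chr9:72073556-72073855 (minus strand): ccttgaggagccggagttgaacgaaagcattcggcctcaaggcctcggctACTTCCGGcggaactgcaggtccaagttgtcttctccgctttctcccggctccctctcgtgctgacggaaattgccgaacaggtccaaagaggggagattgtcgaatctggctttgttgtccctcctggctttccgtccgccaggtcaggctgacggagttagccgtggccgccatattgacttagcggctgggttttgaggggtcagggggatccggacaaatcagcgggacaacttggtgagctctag
Atp5f1b, chr7:1099808-1100107 (plus strand): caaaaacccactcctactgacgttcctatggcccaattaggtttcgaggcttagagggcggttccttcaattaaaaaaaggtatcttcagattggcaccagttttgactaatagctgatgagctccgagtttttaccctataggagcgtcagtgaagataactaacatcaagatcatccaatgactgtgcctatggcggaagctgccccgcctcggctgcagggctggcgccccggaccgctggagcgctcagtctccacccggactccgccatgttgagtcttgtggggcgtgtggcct
Ndufv3, chr20:9613536-9613835 (plus strand): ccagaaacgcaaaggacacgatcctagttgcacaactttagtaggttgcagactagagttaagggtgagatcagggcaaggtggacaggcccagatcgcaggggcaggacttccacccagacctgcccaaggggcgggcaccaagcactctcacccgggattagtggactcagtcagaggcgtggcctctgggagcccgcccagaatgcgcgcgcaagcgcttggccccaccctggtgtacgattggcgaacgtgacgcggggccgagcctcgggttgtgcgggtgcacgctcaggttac

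Against the fresh isolate, most respiratory chain genes were lower in culture. Of the 73 members 61 were lower at day 3, 61 at day 5 and 66 at day 7. The median log2 fold change of the members was -0.23 at day 3, -0.39 at day 5 and -0.34 at day 7, beside medians of 0.016, -0.027 and -0.046 over all 13055 genes tested. Differences were tested with limma on log2(CPM + 1), and a gene was called to have risen or fallen at an adjusted p under 0.05. All fold changes are log2 differences on that scale, which understates the change of low genes. The 3 comparisons share the tissue libraries.

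At day 3, 23 members fell (31.5%) and 2 rose (2.74%), while 26.8% of all genes tested fell and 29.1% rose. At day 5, 35 members fell (47.9%) and 2 rose, against 30.3% and 29.6% of all genes. At day 7, 30 members fell (41.1%) and 2 rose, against 31.4% and 28.5%. The share that fell was thus near that of all genes at day 3 and above it at day 5 and day 7, and the share that rose was below that of all genes at each time. Without the third replicates of day 3 and day 5, 40 of the 73 members fell at day 3, 45 at day 5 and 42 at day 7, while 2, 1 and 2 rose. Of all genes tested in that fit 30.3% fell and 31% rose at day 3, 30.9% and 31.1% at day 5, and 35.5% and 32% at day 7. Leaving out 1 library at a time gave 13 to 33 calls at day 3, 23 to 39 at day 5 and 22 to 34 at day 7. More than a 1.5-fold loss came at day 3 without tissue replicate 1 (15 calls), tissue replicate 3 (14), day 3 replicate 1 (13) or day 3 replicate 2 (16), and at day 5 without tissue replicate 1 (23). The members took 8668 to 10009 CPM together in the tissue libraries, 6958 to 8650.0 at day 3, 6654 to 7565 at day 5 and 6845 to 7538 at day 7, so that every culture library was below every tissue library.

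**Figure D1:**
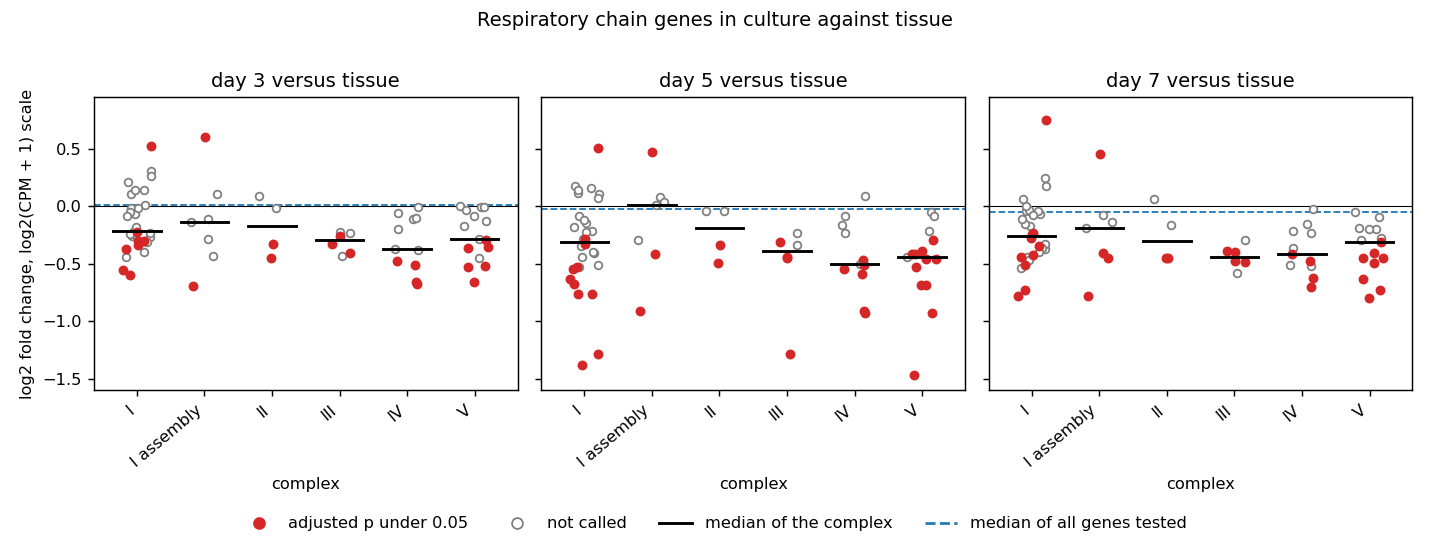
Log2 fold change of each of the 73 members at day 3, 5 and 7 against tissue, by complex, 3 libraries a group. Filled points passed an adjusted p under 0.05, bars are complex medians and the dashed line is the median of all genes tested. Most points lie below the dashed line, complexes III, IV and V have medians of -0.29 or below at day 3, and the called points above 0 are Ndufv3 and Ndufaf1.

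In complex V, the ATP synthase, 6 of 15 genes fell at day 3, 11 at day 5 and 8 at day 7, and none rose. Without the third replicates of day 3 and day 5, 9 fell at day 3, 12 at day 5 and 9 at day 7. The shares of all genes tested that fell, to set beside the counts of each complex, were 26.8%, 30.3% and 31.4% with all libraries. The median log2 fold changes of complex V with all libraries were -0.29, -0.45 and -0.31. Atp5f1b encodes the catalytic beta subunit of the F1 head. It stood at 1753, 1534 and 1809.9 CPM in the tissue libraries, 1031, 1025 and 1179 CPM at day 3, 950.5, 1047 and 1171 CPM at day 5 and 1039, 943 and 939 CPM at day 7. No culture library reached the lowest tissue library. It fell by 0.66 (SE 0.11, adjusted p = 0.000232) at day 3, by 0.69 (adjusted p = 0.000141) at day 5 and by 0.80 (adjusted p = 3.57e-05) at day 7 on the log2 scale, and its call held in each alternative run. Atp5f1c, the central gamma stalk, was at 266 to 282 CPM in tissue and at 176 to 179 CPM at day 7. It fell by 0.53, 0.41 and 0.63 at the 3 times, a call that also held in each alternative run. Atp5f1a, the alpha subunit of the same head, was at 758 to 804 CPM in tissue and 589 to 721 CPM in culture and fell by 0.29, 0.29 and 0.31.

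The membrane ring that turns as protons pass is built of subunit c, whose mature form is encoded by several genes. Atp5mc2 had 380.0, 325 and 404 CPM in tissue, 250.5, 217 and 311 CPM at day 3, 199, 245 and 148 CPM at day 5 and 258, 214 and 197 CPM at day 7. Culture and tissue libraries did not overlap, and Atp5mc2, whose window above holds the palindromic NRF-1 core, fell by 0.52, 0.93 and 0.73. Atp5mc3 fell by 0.36, 0.53 and 0.45. The inhibitor Atp5if1, which blocks the reverse reaction of the enzyme, was at 48.6 to 62.8 CPM in tissue and 35.3 to 77.4 CPM in culture. It was not called, with log2 fold changes of -0.01, -0.22 and -0.19 (SE 0.23). At day 3 leaving out 1 library ended the call of Atp5mc2 without tissue replicate 1 (adjusted p = 0.0649), tissue replicate 3 (0.0844), day 3 replicate 1 (0.0611) or day 3 replicate 2 (0.0966). For Atp5mc3 the adjusted p at day 3 was 0.0585, 0.0525 and 0.0577 without tissue replicate 1, tissue replicate 3 and day 3 replicate 1. For Atp5f1a it was 0.0646 and 0.0674 at day 3 without tissue replicate 3 and day 3 replicate 1, and 0.0614, 0.0684 and 0.0506 at day 5 without tissue replicate 3, day 5 replicate 1 and day 5 replicate 2.

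In complex IV, the terminal oxidase, 4 of 11 genes fell at day 3, 6 at day 5 and 4 at day 7, and none rose. Without the third replicates of day 3 and day 5 the counts that fell were 7, 8 and 7, and none rose. Cox4i1, a regulatory subunit, had 363, 290.1 and 371 CPM in tissue, 237, 199.8 and 282 CPM at day 3, 191, 242 and 248 CPM at day 5 and 274, 242 and 219 CPM at day 7. All culture libraries lay below all tissue libraries. It fell by 0.51, 0.59 and 0.47, with the day 7 call lost without tissue replicate 1 (adjusted p = 0.0518), tissue replicate 3 (0.0567) or day 7 replicate 3 (0.0575). Cox5a, a nuclear subunit near the matrix face, was at 96.5 to 120.3 CPM in tissue and 70.6 to 90.2 CPM in culture, and fell by 0.48, 0.54 and 0.42, called in each alternative run. Cox5b was uneven among the tissue libraries themselves, with 111, 48.8 and 88.4 CPM, and stood at 36.0 to 70.7 CPM in culture, so that the groups overlapped. It fell by 0.68 at day 3 and 0.91 at day 5, and its day 7 value of -0.52 was not called (adjusted p = 0.107). The day 3 call of Cox5b was lost without tissue replicate 1 (adjusted p = 0.206), tissue replicate 3 (0.132), day 3 replicate 1 (0.114) or day 3 replicate 2 (0.177), the day 5 call without tissue replicate 1 (0.0537), and a call at day 7 was gained without tissue replicate 2 (0.00687).

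Several subunits of complex IV exist in alternative forms for different tissues, and the forms above the limit were the ubiquitous ones. Cox7a2, 1 of these forms, had 119, 99.4 and 119 CPM in tissue and 68.1, 67.3 and 75.9 CPM at day 3. It had 57.9, 75.3 and 109.9 CPM at day 5 and 73.5, 67.5 and 64.5 CPM at day 7. Only the third day 5 library overlapped tissue. Cox7a2 fell by 0.66, 0.51 and 0.70, with the day 5 call lost without tissue replicate 1 (adjusted p = 0.0716), tissue replicate 3 (0.0713), day 5 replicate 1 (0.116) or day 5 replicate 2 (0.0516). Cox7b had 60.5 to 70.1 CPM in tissue and 43.1 to 49.3 CPM at day 7, but 45.2, 38.6 and 111 CPM at day 5. It was not called at any of the 3 times, and without the third replicates of day 3 and day 5 it fell by 0.47 (adjusted p = 0.00205), 0.63 (adjusted p = 0.000243) and 0.51 (adjusted p = 0.000406). Cox7c, a small subunit with no alternative form in this list, had 162.6, 136 and 175 CPM in tissue, 103.7, 94.4 and 179 CPM at day 3, 88.0, 79.8 and 77.9 CPM at day 5 and 114, 96.5 and 94.7 CPM at day 7. Tissue stood above every culture library but the third of day 3. Cox7c fell by 0.93 at day 5 and 0.62 at day 7, with the day 7 call lost without tissue replicate 3 (adjusted p = 0.0512) and a call at day 3 gained without day 3 replicate 3 (-0.66, adjusted p = 0.000679). Cox6a1 and Cox7a2l were called at none of the 3 times, and Cox6b1 fell at day 5 alone (-0.46), a call lost without tissue replicate 1 (adjusted p = 0.0503). Ndufa4 was not called, with log2 fold changes of -0.0044 at day 3, 0.09 at day 5 and -0.02 at day 7.

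The testis form Cox7b2 was no member, because it was under 1 CPM in every induction library. In the baseline it had 4.30, 3.53 and 3.85 CPM in tissue, 0.226, 0.516 and 0.740 CPM at day 3, 0.521, 0.202 and 0.265 CPM at day 5 and 0.0574, 0.130 and 0.203 CPM at day 7. Every culture library was far below the tissue libraries, with a level of a few reads at day 7. The log2 fold changes of Cox7b2 were -1.72, -1.89 and -2.11, larger than those of any member in the same comparisons. Cox7b2 met the limit for testing through the tissue libraries alone. Only a fall could then be found, so these values are a description. The lung form Cox4i2 was at 1.18 to 2.39 CPM in tissue and 0.113 to 0.631 CPM in culture. It too met the limit through tissue alone, and its log2 fold changes were -0.93, -0.97 and -0.80. The muscle form Cox6a2 had no read in the 3 tissue libraries, where 3 reads would be 0.138 CPM at most, and 0.402, 0.650 and 0.812 CPM at day 7, under the limit for testing. The muscle form Cox7a1 was under 1 CPM in every library. All 9 germ cell markers tested also fell at each of the 3 times, with a median log2 fold change of -2.90 at day 3 and -2.93 at day 7, and their part in the levels of Cox7b2 or of the members was not tested.

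In complex III, which passes electrons from ubiquinol to cytochrome c, 3 of 6 genes fell at day 3, 4 at day 5 and 4 at day 7, and all 6 were lower at each time. Without the third replicates of day 3 and day 5, 5 of the 6 fell at each time. Uqcrfs1, the Rieske iron-sulfur protein, had 217, 202 and 234 CPM in tissue, 176, 169 and 201 CPM at day 3, 152, 172 and 153 CPM at day 5 and 153, 155 and 158 CPM at day 7. The highest day 3 library lay just below the lowest tissue library and the later groups lay further apart, and it fell by 0.26, 0.45 and 0.48. The core protein Uqcrc1, whose window holds an NRF-1 and a YY1 core, was at 211 to 236 CPM in tissue and 158 to 210.3 CPM in culture and fell by 0.32, 0.31 and 0.39. The other core protein, Uqcrc2, had 164, 158 and 219 CPM at day 5 against 202 to 214 CPM in tissue. It fell by 0.41 at day 3 and 0.48 at day 7 and was called at day 5 only without the third day 5 library (-0.38, adjusted p = 0.00276). At day 3 the call of Uqcrc1 was lost without tissue replicate 1 (adjusted p = 0.0863), tissue replicate 3 (0.104), day 3 replicate 1 (0.083) or day 3 replicate 2 (0.136), and that of Uqcrfs1 without the same libraries (0.0748, 0.129, 0.0956 and 0.114). At day 5 Uqcrc1 lost its call without tissue replicate 1 (0.0923), tissue replicate 3 (0.111), day 5 replicate 1 (0.162) or day 5 replicate 2 (0.0711), and at day 7 without day 7 replicate 2 (0.0506).

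Complex II is built of 4 nuclear subunits and is also an enzyme of the tricarboxylic acid cycle. The catalytic pair fell and the membrane anchors were not called. Sdhb, the iron-sulfur subunit, had 106, 107 and 117 CPM in tissue, 76.8, 72.6 and 91.1 CPM at day 3, 71.4, 80.4 and 80.7 CPM at day 5 and 74.9, 82.6 and 82.5 CPM at day 7. All culture libraries lay below tissue, and Sdhb fell by 0.45, 0.50 and 0.45 (SE 0.10), called in each alternative run. Sdha, the flavoprotein, was at 289.8 to 306 CPM in tissue and 199 to 267 CPM in culture and fell by 0.33, 0.34 and 0.45, with the call lost at day 3 without day 3 replicate 2 (adjusted p = 0.0678) and at day 5 without day 5 replicate 1 (0.0523). Sdhc had 124 to 136 CPM in tissue and 117 to 145 CPM in culture, with log2 fold changes of 0.09, -0.04 and 0.06. Sdhd had 80.2 to 92.2 CPM in tissue and 70.6 to 94.2 CPM in culture, with log2 fold changes of -0.01, -0.04 and -0.16. For both anchors the groups overlapped at day 3 and day 5, for Sdhc also at day 7, and the difference between the pairs of subunits was not itself tested.

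**Figure D2:**
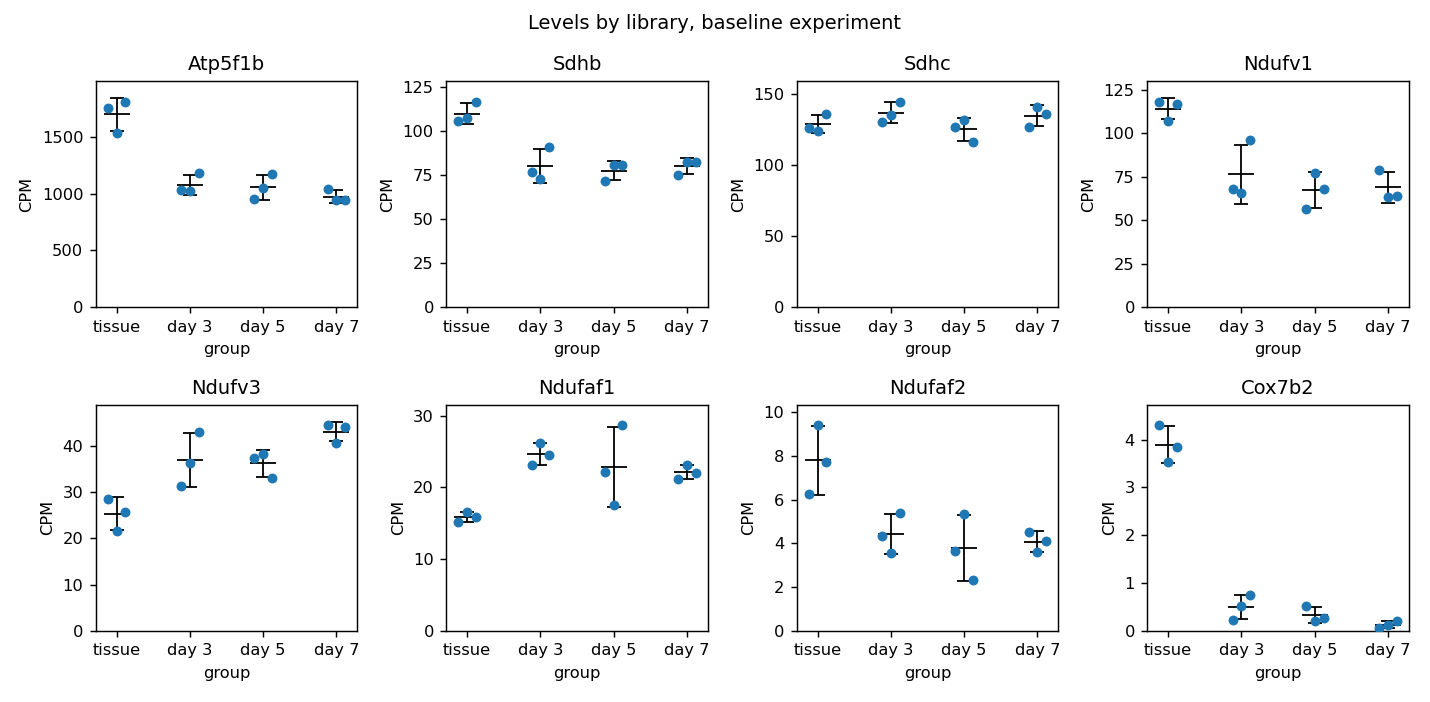
CPM of 7 members and of the testis form Cox7b2 in the baseline libraries, with 3 libraries a group and bars at the mean and SD. Axes start at 0 and differ between panels. Atp5f1b, Sdhb, Ndufv1, Ndufaf2 and Cox7b2 are lower in every culture library than in tissue, Ndufv3 and Ndufaf1 are higher, and Sdhc overlaps.

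Complex I, the largest complex, was mixed: 7 of 30 genes fell and 1 rose at day 3, 10 fell and 1 rose at day 5, and 9 fell and 1 rose at day 7. Of all genes tested 26.8% fell at day 3, 30.3% at day 5 and 31.4% at day 7, near the shares of complex I. Without the third replicates of day 3 and day 5, 14 fell at day 3, 15 at day 5 and 16 at day 7. In that fit 30.3%, 30.9% and 35.5% of all genes fell. Ndufv1, which binds NADH and holds the flavin, had 118, 107 and 117 CPM in tissue, 67.8, 65.5 and 96.0 CPM at day 3, 56.6, 77.3 and 68.3 CPM at day 5 and 79.2, 63.3 and 64.1 CPM at day 7. It fell by 0.59, 0.76 and 0.73 (adjusted p = 0.00476, 0.00076 and 0.00104), below tissue in every culture library. Ndufv3, a small accessory subunit of the NADH-binding part, had 28.6, 21.6 and 25.8 CPM in tissue, 31.3, 36.4 and 43.1 CPM at day 3, 37.5, 38.2 and 33.0 CPM at day 5 and 44.5, 40.7 and 44.0 CPM at day 7. It was above tissue in every culture library and rose by 0.53, 0.51 and 0.75 (adjusted p = 0.00484, 0.00553 and 0.000317). Ndufv2, an iron-sulfur subunit of that part, was at 59.8 to 61.9 CPM in tissue and 48.5 to 68.4 CPM in culture and was not called.

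Ndufab1, the mitochondrial acyl carrier protein, had 88.1 to 109 CPM in tissue and 55.8 to 79.7 CPM in culture. It fell by 0.56, 0.63 and 0.78, and with Ndufv1 and Ndufv3 it was called in each alternative run. Ndufs1, an iron-sulfur subunit whose window holds the ETS core, was at 165 to 183 CPM in tissue, 139 to 141 CPM at day 3, 129 to 166 CPM at day 5 and 128 to 143 CPM at day 7. It fell by 0.30 at day 3 and 0.34 at day 7, with the day 3 call lost without tissue replicate 2 (adjusted p = 0.0773) or day 3 replicate 1 (0.0523) and a call at day 5 gained without day 5 replicate 3 (-0.29, adjusted p = 0.0141). Ndufs7, another iron-sulfur subunit, was not called, with log2 fold changes of 0.14, 0.16 and -0.04. 

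The largest falls at day 5, Ndufa3 (-1.38), Ndufa11 (-1.29) and, in complex V, Atp5me (-1.47), rest largely on the third library of that day. Ndufa3 had 14.9, 17.7 and 1.32 CPM in the day 5 libraries against 20.7 to 24.6 CPM in tissue, Ndufa11 had 81.6, 99.1 and 13.7 CPM against 111 to 131 CPM, and Atp5me had 11.2, 17.1 and 1.48 CPM against 18.7 to 25.0 CPM. Without that library the log2 fold changes were -0.42 (adjusted p = 0.104) for Ndufa3, -0.41 (still called) for Ndufa11 and -0.61 (adjusted p = 0.135) for Atp5me. Leaving out any 1 of the 3 tissue libraries also ended these day 5 calls, with adjusted p-values of 0.0848 to 0.112 for Ndufa3, 0.0687 to 0.0949 for Ndufa11 and 0.0572 to 0.0927 for Atp5me. None of these 3 genes was called at day 3 or day 7, while Ndufa11 was without the third replicates of day 3 and day 5 (-0.39 at day 3, -0.37 at day 7). Uqcrb of complex III had its lowest value, 4.44 CPM, in the same library, and fell at day 5 by 1.28, or by 0.90 without it (still called).

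Among the assembly factors of complex I, proteins that help build the complex without staying in it, Ndufaf1 rose and Ndufaf2 fell at each time. Of the 7 factors 1 fell at day 3, 2 at day 5 and 3 at day 7. Without the third replicates of day 3 and day 5, 3 fell at each time, with Ndufaf4 (-0.48) and Ndufaf5 (-0.41) added at day 3 and Ndufaf7 (-0.36) at day 5, and Ndufaf1 was not called at day 5 (0.30, adjusted p = 0.0614). Ndufaf1 had 15.1, 16.5 and 15.9 CPM in tissue, 23.2, 26.2 and 24.6 CPM at day 3, 22.2, 17.6 and 28.7 CPM at day 5 and 21.2 to 23.2 CPM at day 7. Each culture library was above tissue, and it rose by 0.61 (adjusted p = 0.0038), 0.48 (adjusted p = 0.0149) and 0.46 (adjusted p = 0.0179). The day 5 call was lost without day 5 replicate 3 (0.30, adjusted p = 0.0567) or tissue replicate 1 (adjusted p = 0.0506), and the day 7 call without day 7 replicate 2 (0.0539) or tissue replicate 1 (0.0586). Ndufaf2 had 6.27, 9.40 and 7.73 CPM in tissue and 2.33 to 5.39 CPM in culture, all below tissue. It fell by 0.69, 0.92 and 0.78, with the day 3 call lost without tissue replicate 2 (adjusted p = 0.0878), tissue replicate 3 (0.0516), day 3 replicate 1 (0.0512) or day 3 replicate 2 (0.0796). Ndufaf3, Ndufaf6 and Ndufaf7 were not called at any time with all libraries. Ndufaf5 fell at day 5 and day 7 (-0.41 at both). Its day 5 call was lost without tissue replicate 1, tissue replicate 3, day 5 replicate 1 or day 5 replicate 2 (adjusted p = 0.0592 to 0.0824), and its day 7 call without tissue replicate 1, tissue replicate 3, day 7 replicate 2 or day 7 replicate 3 (0.0718 to 0.0962). Ndufaf4 fell at day 7 (-0.45, adjusted p = 0.04996), a call lost in 11 of 17 alternatives, among them each of the 6 that left out a tissue or day 7 library (adjusted p = 0.0576 to 0.18).

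**Figure D3:**
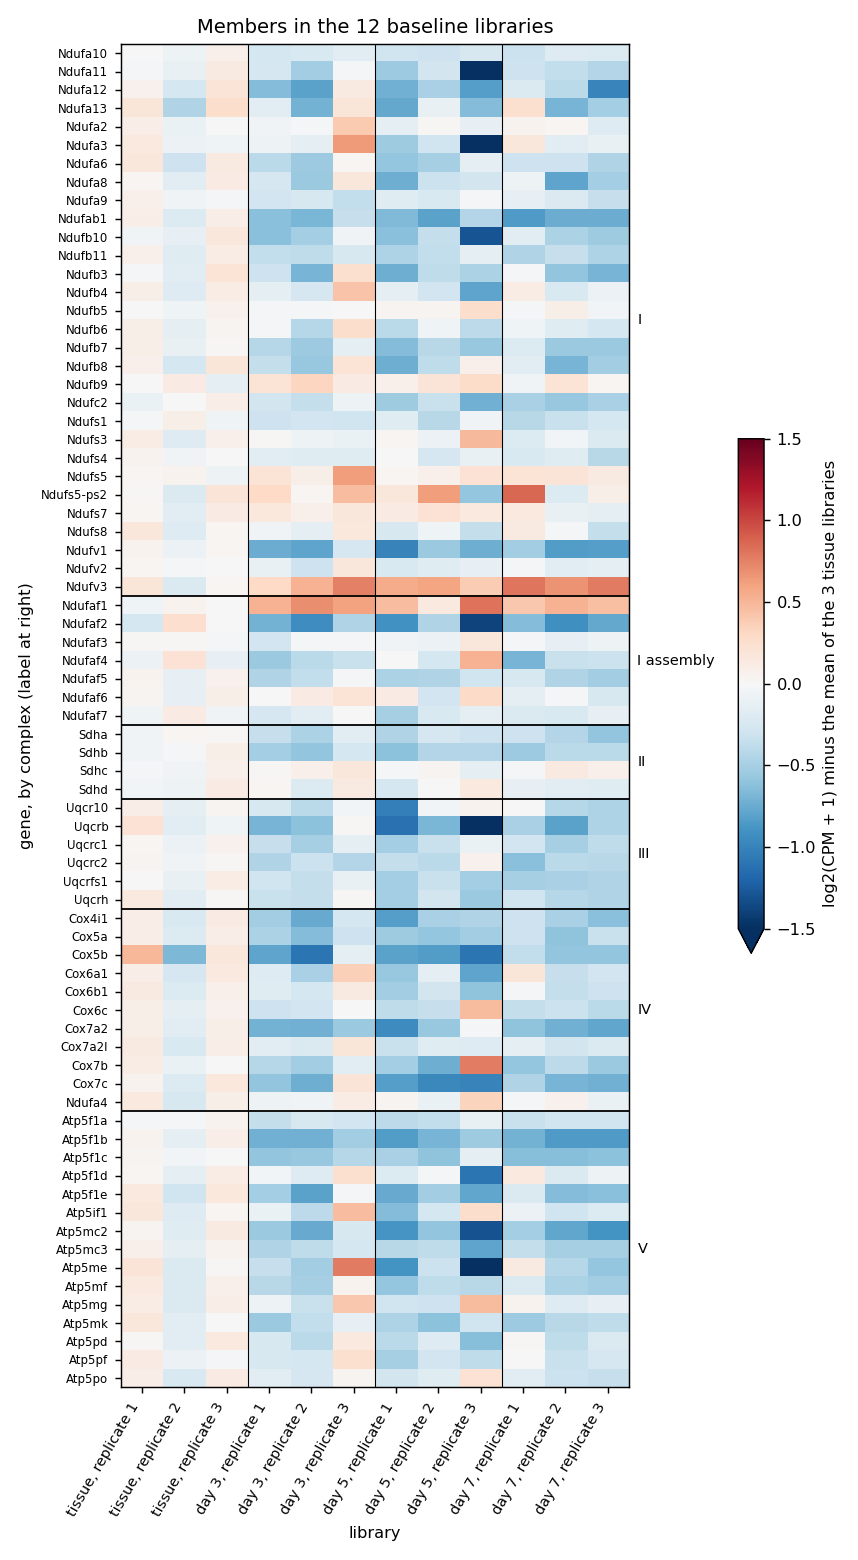
Each member (row, grouped by complex) in each of the 12 baseline libraries (column), as log2(CPM + 1) minus the mean of the 3 tissue libraries. Blue is lower and red higher than tissue, and the scale stops at 1.5, beyond which Ndufa3, Ndufa11, Uqcrb and Atp5me in the third day 5 library run. The rows of Ndufv3 and Ndufaf1 are red in all 9 culture columns, while those of Atp5f1b, Ndufab1 and Sdhb are blue.

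Between day 7 and day 3 no member was called by limma, edgeR or DESeq2, beside 1.36% of all genes that rose and 2.44% that fell. At an unadjusted p under 0.05 there were 2 members. Of the 73 members 64 were lower at day 7, with a median log2 fold change of -0.10, but all genes tested also had a median below 0 (-0.06). With TMM scaling 45 members were lower, and without the third replicates of day 3 and day 5 only 28 were, with a median of 0.027. The 95% interval lay within a 2-fold change either way for 70 members, and the standard errors ran from 0.08 to 0.56 on the log2 scale.

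The mitochondrially encoded subunits, which join the nuclear ones in complexes I, III, IV and V, varied widely between libraries and were mostly lower in culture. Their summed level was 24451, 34602 and 25606 CPM in tissue, 23280.0, 22105 and 10334 CPM at day 3, 32567, 16761 and 18462 CPM at day 5 and 19508, 18739 and 22765 CPM at day 7. The groups overlapped at day 5 and lay apart at day 3 and day 7. Of 13 genes 4 fell at day 3, 4 at day 5 and 3 at day 7, and none rose. Of all genes tested 26.8%, 30.3% and 31.4% fell at these times. Mean levels of Mt-nd5 were 854 CPM in tissue and 973, 1254 and 1046 CPM in culture. Those of Mt-nd6 were 120 CPM in tissue and 149, 169 and 149 CPM in culture. At day 5 the means of Mt-nd4, Mt-nd4l and Mt-co1 were also above tissue, and that of Mt-co1 was at day 7 too. The oxidase gene Mt-co3 fell by 1.10, 1.04 and 1.11 and the synthase gene Mt-atp6 by 1.11, 0.99 and 1.05. Libraries were made from poly-T purified RNA, which captures most of these transcripts by their short tails.

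Beyond the complexes, the carriers and quinone synthesis genes had 5 of 17 that fell and 1 that rose at day 3, 6 and 1 at day 5, and 6 and 0 at day 7. For this list and those that follow, 26.8% of all genes tested fell and 29.1% rose at day 3. At day 5 these shares were 30.3% and 29.6%, and at day 7 they were 31.4% and 28.5%. Cyct, the testis form of cytochrome c, was at 4.08 to 4.67 CPM in tissue and 0.217 to 0.406 CPM at day 7. Cyct fell by 1.55, 2.07 and 2.08, a description only, since its culture libraries alone would not have met the limit for testing. Coq7, which acts in ubiquinone synthesis, was at 26.1 to 34.7 CPM in tissue and 8.12 to 13.5 CPM at day 7, and fell by 1.04, 1.47 and 1.46. Of 31 assembly factors of complexes II to V and further complex I factors, 7 fell and 5 rose at day 3, 7 and 4 at day 5, and 6 and 4 at day 7. Neither share exceeded that of all genes at any of these times. Bcs1l, which inserts the Rieske protein into complex III, fell by 0.69, 0.63 and 0.78, and Tmem186, a complex I assembly factor, rose at the 3 times, by 0.97 at day 5 and 1.04 at day 7.

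Of 19 regulators of mitochondrial gene expression 5 fell and 4 rose at day 3, 4 and 3 at day 5, and 4 and 2 at day 7. The shares that fell and rose were at or below those of all genes at each time. Tfam, which packages mitochondrial DNA and starts its transcription, was at 96.0 to 107 CPM in tissue and 50.3 to 65.1 CPM in culture, with no overlap. It fell by 0.71, 0.82 and 0.92. Nrf1, which encodes NRF-1, was at 65.4 to 68.8 CPM in tissue and 40.7 to 56.8 CPM in culture and fell by 0.44, 0.44 and 0.61. The coactivator gene Ppargc1a was low, at 0.691 to 1.27 CPM in tissue and 2.18 to 5.32 CPM in culture, and rose by 1.15, 1.36 and 0.86. The receptor gene Esrrg rose by 2.00 at day 3 and 2.68 at day 5, from 0.439 to 1.02 CPM in tissue to 4.44 to 13.5 CPM in culture. Neither Ppargc1a nor Esrrg would have met the limit for testing on its tissue libraries alone.

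Of 17 genes of the tricarboxylic acid cycle 6 fell and 1 rose at day 3, 7 and 1 at day 5, and 6 and 1 at day 7. Sucla2, a succinyl-CoA ligase subunit, fell by 0.68, 0.69 and 0.71, and Pdha1, a subunit of pyruvate dehydrogenase, rose by 0.69, 0.58 and 0.62. Of 21 glycolysis genes tested, transporters included, 2 fell and 5 rose at day 3, 5 and 3 at day 5, and 3 and 4 at day 7. The lactate transporter gene Slc16a1 fell by 0.77, 0.67 and 0.80. Slc16a3, another lactate transporter gene of the list, was low and higher at day 7, at 0.526 to 0.917 CPM in tissue and 3.295 to 5.73 CPM at day 7. These lists hold rows whose counting is uncertain: of 119 genes, 5 had a mean level more than 10-fold higher in the baseline than in the induction libraries and 3 the reverse, on the CPM + 1 scale. Among the former Aldoa, counted among the glycolysis genes that rose at day 3 and day 7, averaged 749 CPM and 0.256 CPM, and among the latter Tpi1, not called in the baseline, averaged 2.94 CPM and 173 CPM. Both encode enzymes of glycolysis.

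After LH and FSH no member was called by limma at 2, 12 or 48 h against 0 h, or at 48 h against 12 h. Of all 12450 genes tested 0% rose and 0% fell at 2 h, 0% and 0% at 12 h, 0.345% rose and 0.0482% fell at 48 h, and 0% and 0% between 48 h and 12 h. At an unadjusted p under 0.05 there were 1, 2, 5 and 1 members in these 4 comparisons. EdgeR called none in any of the 4. DESeq2 called Ndufv3 at 2 h (-0.24, adjusted p = 0.0335, where limma gave 0.222) and Atp5mf at 48 h (-0.26, adjusted p = 0.00831), and none at 12 h or between 48 h and 12 h. With the litter as a block, limma called Atp5mf at 48 h (-0.29, adjusted p = 0.0318), where without it the adjusted p was 0.112. That block called 541 of all genes at 48 h, 77 at 2 h, 0 at 12 h and 89 between 48 h and 12 h, against 49, 0, 0 and 0 without it, and no other member.

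Atp5mf, a small subunit in the membrane part of the ATP synthase, had 77.4, 81.9 and 82.7 CPM at 0 h in litters 1, 2 and 3, 80.5, 73.8 and 74.3 CPM at 2 h, 76.4, 78.8 and 69.7 CPM at 12 h and 65.2, 68.5 and 64.1 CPM at 48 h. The 48 h libraries lay below those of every other time. Its 95% interval at 48 h against 0 h was -0.43 to -0.14 on the log2 scale. Ndufv3, the complex I subunit that rose in culture, had 51.2, 49.9 and 51.6 CPM at 0 h, 45.1, 43.8 and 39.9 CPM at 2 h, 49.2, 45.3 and 46.6 CPM at 12 h and 46.7, 45.9 and 45.6 CPM at 48 h, so that each later library was below each 0 h library. Atp5f1b, the catalytic subunit, had 944, 985 and 937 CPM at 0 h and 868, 979 and 842 CPM at 48 h, and overlapped.

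Small differences of 1 sign were common among the members. Below 0 h were 42 of 73 at 2 h, 70 at 12 h and 66 at 48 h, and with TMM scaling 37, 59 and 59. The medians were -0.01, -0.08 and -0.09, beside -0.02, -0.04 and -0.03 over all genes. By litter, members below the 0 h library of the same litter numbered 30, 29 and 58 at 2 h in litters 1, 2 and 3, 57, 46 and 66 at 12 h and 58, 57 and 69 at 48 h. Of all genes tested, 44.6, 52.4 and 59.4% were below 0 h at 2 h in litters 1, 2 and 3, 54.5, 60.5 and 58.9% at 12 h and 51.9, 58.3 and 59.1% at 48 h. Litter 3 had the most members below 0 h at each time, and the largest share of all genes at 2 h and 48 h. At 48 h the complex medians ran from -0.06 in complex II to -0.11 in complex V, where all 15 genes were lower. The 95% interval lay within a 2-fold change either way for all 73 members at 2 h and 12 h and for 72 at 48 h, the exception being Ndufa3. The comparisons with 0 h share its 3 libraries.

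**Figure D4:**
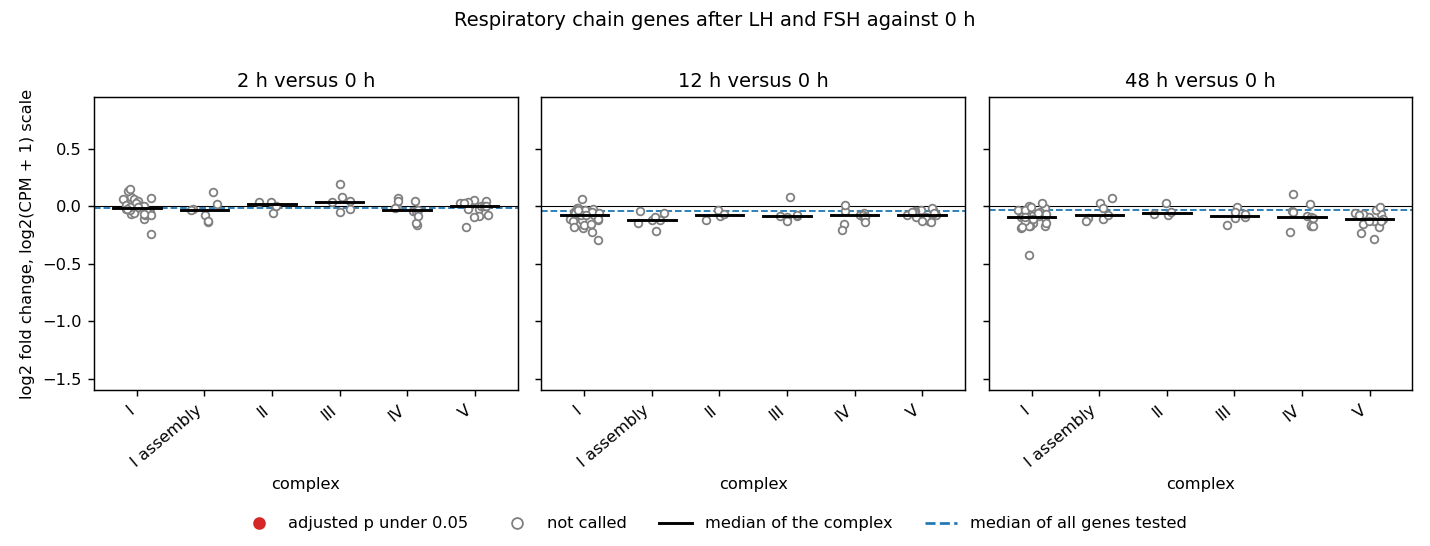
Log2 fold change of each of the 73 members at 2, 12 and 48 h against 0 h, by complex, with the same axis as the plot of culture against tissue. No point passed an adjusted p under 0.05, and complex medians (bars) stay between -0.12 and 0.04.

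By summed level, complex V took 2914, 2973 and 2853 CPM at 0 h in litters 1, 2 and 3 and 2709, 2914 and 2582 CPM at 48 h. Each litter was lower at 48 h than at 0 h, and the litters overlapped. Complex I took 1546, 1589 and 1519 CPM at 0 h and 1446, 1516 and 1408 CPM at 48 h. The mitochondrially encoded subunits were at 5528, 10503 and 6429 CPM at 0 h and 4727, 5498 and 3015 CPM at 48 h, with 0 of 12 called and a median log2 fold change of -0.76. No gene of the other pathway lists or of the cell type marker lists was called in the induction comparisons by limma without the litter block. The fit with the block was not read for these lists. Levels of some uncalled genes lay apart from 0 h, and the genes that follow were picked for this. The share of all genes that lay apart in this way is not given, so these levels are a description. Coq10b was at 27.5 to 29.7 CPM at 0 h and 43.2 to 52.5 CPM at 2 h. Cyp17a1 was at 0.276 to 2.08 CPM at 0 h and 8.82 to 36.3 CPM at 48 h. Pdss1 went down, from 4.10 to 5.51 CPM at 0 h to 2.60 to 3.33 CPM at 48 h.

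**Figure D5:**
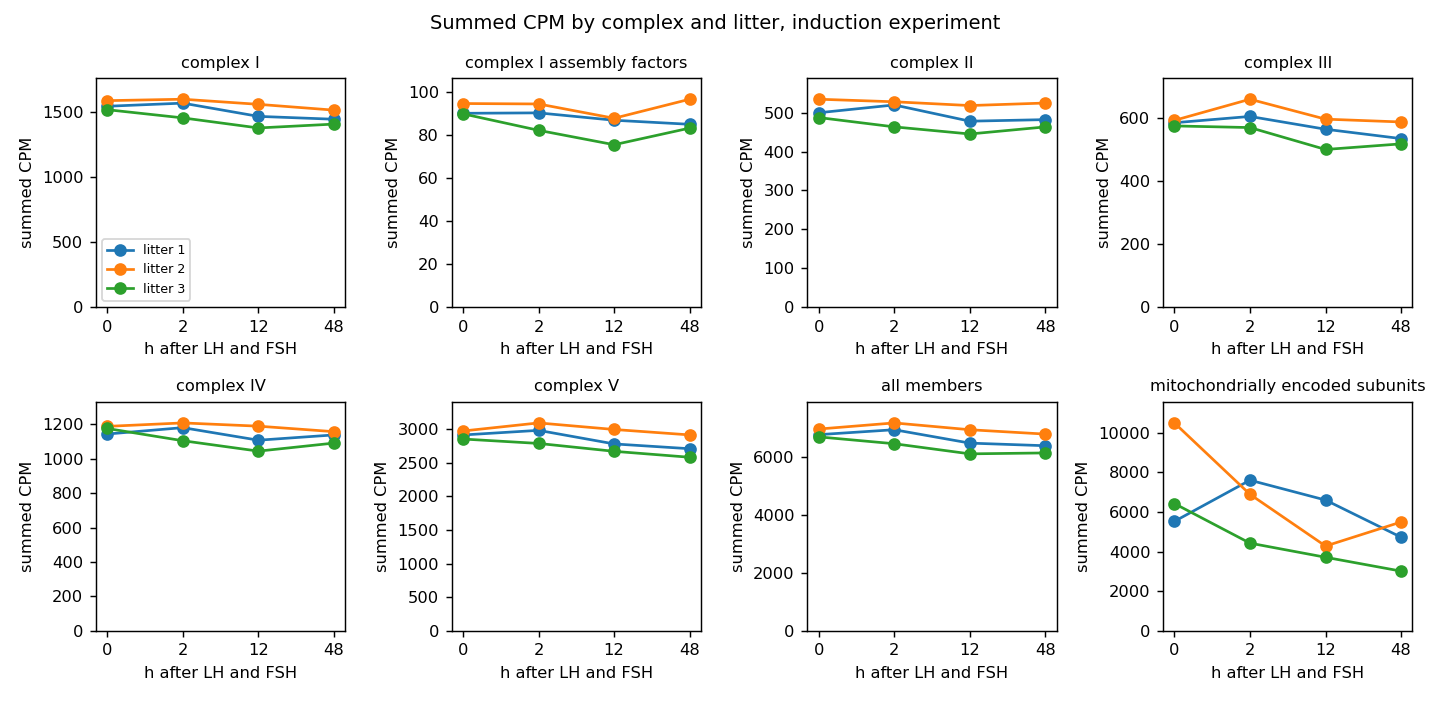
Summed CPM of each complex, of all 73 members and of the mitochondrially encoded subunits at 0, 2, 12 and 48 h, 1 line per litter, with times drawn at equal steps and axes from 0. All members together lie at 6701 to 6972 CPM at 0 h and 6146 to 6797 CPM at 48 h, while the lines of the mitochondrially encoded subunits end lower than they start in each litter.

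Rows that missed the limit numbered 21, of which 11 had a pseudogene or copy symbol. In the induction experiment alone 7 missed it, in the baseline alone 1 (Cox6a2) and in both 13. Atp5mc1, another gene for subunit c, fell by 0.45, 0.62 and 0.50 from 80.0 to 95.7 CPM in tissue, and was listed at 0 to 0.195 CPM in the induction. Uqcr11 had 19.6 to 86.0 CPM in the baseline and was not called, and no read was listed for it in the induction, where 3 reads would be 0.190 CPM at most. The nearest gene inside the limit, Ndufa3, had a mean of 20.1 CPM over the baseline libraries and 0.575 CPM over the induction libraries. Of the members Ndufa3 alone differed by more than 10-fold between the experiments, and Ndufa12 differed the other way, with means of 6.89 CPM and 39.6 CPM. The counting behind such rows is uncertain in either experiment, and no level was compared between experiments as a result.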

How the data were processed

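RNA was purified with poly-T beads and sequenced from non-directional libraries, per the labels' protocols, so reads of a gene and of an antisense neighbour cannot be told apart. Reads were aligned with STAR to mRatBN7.2, per the submitters' processing notes, and the counting tool and annotation are not given in the sources used here. The authors deposited CPM values for 21425 genes, with 2.93 to 4.71% of reads outside the listed genes. All values (100%) were whole multiples of 1 read to within 0.01 read, so reads were recovered for edgeR 4.0.16 and DESeq2 1.42.0 as alternatives.

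For each experiment limma 3.58.1 (R 4.3.3) was run on log2(CPM + 1) of all 12 libraries, with group and no covariate, over genes with at least 1 CPM in at least 3 libraries. The 8 comparisons were each adjusted over all genes tested by Benjamini and Hochberg's method, with p-values from both tails, and the script was tested on simulated data. Named genes were the called members with the largest change in each complex, core subunits, alternative isoforms, members called against their complex and rows at the limit. Other pathway lists were read from the same fit. The members, lists and rules were chosen with earlier results of these data known. Litter numbers pair the induction libraries, since same-numbered libraries come from 1 litter and deviated together (median correlation 0.482 over 18 pairs, from -0.0119 to 0.747). In the baseline the number names a technical replicate and did not pair libraries (median correlation -0.000715). A planned comparison of protein sequences was not run. 1 matching row under the limit is not reported here.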

Additional observations from a re-analysis of the deposited data

How the results depend on the processing

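No member's log2 fold change that was called turned sign under any alternative run. The number of members called against tissue at day 3 (25) became 42 without the third replicates of day 3 and day 5, an alternative chosen after seeing the data. Leaving out 1 library at a time gave 13 to 33 calls at day 3, 23 to 39 at day 5 and 22 to 34 at day 7, and 0 in the other comparisons. DESeq2 on recovered reads gave 1 call at 2 h and 1 at 48 h against 0 h, where limma gave 0. With the replicate block (the litter) there was 1 call at 48 h and 0 at 2 h, at 12 h and between 48 h and 12 h. In the baseline, where replicate numbers did not pair libraries, the replicate block gave 25, 36, 32 and 0 calls, against 25, 37, 32 and 0 without it. Over all genes, the litter block gave 77, 0, 541 and 89 calls at 2 h, 12 h, 48 h and between 48 h and 12 h, DESeq2 378, 9, 419 and 85, and edgeR 6, 0, 38 and 0, against 0, 0, 49 and 0. The cause of these changes was not tested. The lists beyond the members were read from the limma fit alone.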
